A study of Mus musculus with 8 samples.

Results

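The Fanconi anemia pathway genes described here are 29 genes chosen by name, not by their values, out of 52224 in the table. They comprise 14 genes of the nuclear core complex and its ubiquitin-conjugating enzyme, 2 of the FANCD2-FANCI (ID2) complex, 11 of downstream repair and 2 of deubiquitination. All 29 were in the table and all 29 passed the filter on low values. RNA was sequenced from mouse hematopoietic stem cells of the bone marrow, taken from the LSK gate (lineage-negative, Sca-1-positive, Kit-positive) by their CD150 and their lack of CD48. There were 4 libraries of DekTg genotype and 4 of DekCon genotype, named after Dek, a chromatin-associated protein. The sources used here give neither what the 2 genotypes consist of, nor the promoter of any transgene, the age and sex of the mice, or whether each library is a separate mouse. The p-values therefore rest on the spread between libraries, which may be technical. No treatment other than the genotype is given.

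The Fanconi anemia pathway repairs crosslinks between the strands of DNA. FANCM and its partners recognise the stalled fork, and the core complex, with the ligase FANCL and the enzyme UBE2T, adds ubiquitin to FANCD2 and FANCI. The modified pair brings in nucleases, translesion synthesis and recombination proteins, and USP1 with WDR48 takes the ubiquitin off again. Inherited loss of the pathway causes failure of blood formation, and stem cells that lack it are sensitive to aldehydes and replication stress. The series title names Fanconi anemia and replication stress, and the comparison asks here whether transcripts of this pathway differ between DekTg and DekCon stem cells.

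RefSeq promoter sequences (GRCm38.p6, from 250 bases before to 50 after the annotated start) were at hand for 26 of the 29 genes. Those of Faap24, Cenpx and Fancg are shown. Faap24 had the smallest p of the pathway, and Cenpx had it once DekTg replicate 2 was left out. Fancg was chosen for its E2F word and not for a difference between groups. The core gene Cenps also holds an E2F word and is not shown. Cenpx has a further window, chr11:120713718-120714017, which is not shown. Capitals mark matches on either strand to CCAAT or to the E2F words TTTCCCGC, TTTGGCGC, TTTCGCGC and TTTGCCGC. No E2F word overlapped a CCAAT match in these windows.
Faap24, chr7:35396718-35397017, minus strand: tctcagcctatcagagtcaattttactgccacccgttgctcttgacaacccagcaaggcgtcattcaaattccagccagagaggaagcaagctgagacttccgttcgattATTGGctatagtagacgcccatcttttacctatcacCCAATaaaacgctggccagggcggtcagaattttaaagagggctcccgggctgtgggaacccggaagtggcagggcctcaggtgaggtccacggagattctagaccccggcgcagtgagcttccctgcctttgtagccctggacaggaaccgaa
Cenpx, chr11:120713759-120714058, minus strand: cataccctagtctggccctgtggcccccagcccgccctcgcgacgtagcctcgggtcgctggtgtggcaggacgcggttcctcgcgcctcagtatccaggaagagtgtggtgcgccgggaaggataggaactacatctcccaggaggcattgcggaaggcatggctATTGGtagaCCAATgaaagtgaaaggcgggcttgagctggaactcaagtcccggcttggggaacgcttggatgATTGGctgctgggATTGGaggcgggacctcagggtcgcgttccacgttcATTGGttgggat
Fancg, chr4:43010252-43010551, minus strand: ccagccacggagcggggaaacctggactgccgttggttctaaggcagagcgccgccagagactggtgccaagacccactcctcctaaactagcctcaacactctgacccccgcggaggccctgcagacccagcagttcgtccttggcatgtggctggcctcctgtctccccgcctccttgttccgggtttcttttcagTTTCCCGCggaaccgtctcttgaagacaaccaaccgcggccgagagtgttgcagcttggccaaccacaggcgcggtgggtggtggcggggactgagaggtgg

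Faap24 held 2 CCAAT matches and no E2F word, Cenpx held 5 CCAAT matches, and Fancg held 1 E2F word and no CCAAT match. Over the pathway, 4 of 26 genes with a promoter (Brca2, Cenps, Fancg and Rad51c) held an E2F word, or 15.4%, against 2.61% of all 27025 genes in the promoter table. A CCAAT match was found in 17 of 26, or 65.4%, against 41.1% of all genes. The ETS word CCGGAAG was found in 6 of 26, or 23.1%, against 9.93%, and the SP word GGGCGG in 17 of 26, against 38.2%. The cell-cycle word TTTGAA was found in 2 of 26, or 7.69%, against 20.2% of all genes. The promoter GC of 23090 genes lay in the range of the pathway. Among these the shares were 2.96% for E2F, 41.1% for CCAAT, 11.4% for ETS, 42.9% for SP and 17.6% for TTTGAA. These are counts of letters on either strand and not sites of binding.

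Gene starts were often paired head to head. Of the 29 genes, 9 had the start of a gene on the other strand within 1000 bases upstream or 200 bases downstream of their own, or 31.0%, against 12.6% of 21951 protein-coding genes in GENCODE M21. Distances between the paired starts ran from 15 to 217 bases. Faap24 faces Cep89, Cenpx faces Lrrc45, Fancd2 faces Emc3, Palb2 faces Dctn5 and Brca1 faces Nbr1. Exons of 12 of the 29 share bases with a gene on the other strand, up to 15.95% of the exon length for Fanci with Polg and 16.4% for Fancc with Gm16133. No source used here gives the strand setting of the counting, so reads in those bases cannot be told apart.

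The values are normalized read counts, that is, gene counts divided by 1 size factor per library. Recovered reads numbered 2.64 to 3.59 per DekTg library and 2.53 to 4.10 per DekCon library, in units of 1000000. The 29 genes together held 3119 to 3898 reads per DekTg library and 2694 to 4513 per DekCon library. Dek itself averaged 2392 ± 403 in DekTg and 511 ± 100 in DekCon (SD, n = 4 each; two-sided exact permutation p = 0.0286, the smallest this design allows), but its 4 DekTg values are not whole numbers of reads, so the size of the difference is not a measured one. None of the 29 pathway genes holds such a value.

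The libraries numbered 2 stood apart, and for some marker sums those numbered 3 did too. In DekCon replicate 2 the summed value of 21 proliferation genes was 15605, against 8626 to 10393 in the other DekCon libraries, and that of 7 megakaryocyte markers was 10284, against 2941 to 5286. The 4 DekTg libraries had proliferation sums of 7901 to 10041 and megakaryocyte sums of 2220 to 3701. In DekTg replicate 2 values were lower at higher GC content of the transcript, described below. Of 11 stem cell markers, none of which was at 0 in any library, 0 passed the threshold, and their sums were 5160.1 to 6050.3 in DekTg and 5645 to 7122 in DekCon. Of 9 erythroid markers 3 were higher in DekTg (Hba-a1, Hba-a2, Hbb-bs), with sums over all 9 of 495 to 615 in DekTg and 161 to 446 in DekCon. Epor and Klf1 of that list lay below 0, at log2 fold changes of -1.06 and -0.89 that did not pass. Of 10 B and plasma cell markers 2 were higher in DekTg (Igkc and Jchain), with sums of 4474 to 5282 in DekTg and 372 to 1146 in DekCon. No marker of these 2 lists was at 0. For 9 myeloid markers (2352 to 11002 in DekTg, 3832 to 10713 in DekCon) and 6 T cell markers (150.1 to 202 in DekTg, 147 to 161 in DekCon), 0 passed and the sums overlapped. Cd3d and Trac were at 0 in some libraries. In both groups libraries 2 and 3 lay above libraries 1 and 4 in the proliferation, megakaryocyte and myeloid sums. Megakaryocyte sums were 2220, 3701, 3601 and 2291 in DekTg replicates 1 to 4, against 2941, 10284, 5286 and 3113 in DekCon. Myeloid sums were 2399, 4693, 11002 and 2352 in DekTg, against 3832, 10713, 10485 and 3873 in DekCon. Single myeloid markers did not all follow their sum. In DekCon replicates 1 to 4 Mpo was 1677, 6147, 5441 and 1619, and S100a8 was 470, 427, 876 and 523. In DekTg replicate 3 S100a8 was 4181 and Mpo 2897. The stem cell, erythroid, B and plasma cell and T cell sums did not split so in both groups. The part of any of these in the values below was not tested, and in bulk libraries fewer cells of a type and less RNA per cell cannot be told apart.

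No gene of the Fanconi anemia pathway passed the test between DekTg and DekCon. The test was limma on log2(value + 1), with p-values adjusted by Benjamini-Hochberg across the 37414 genes that passed the filter. At a threshold of 0.05, 13 genes of the table, or 0.0347%, passed. Without the 6 genes of the table that hold values other than whole numbers of reads, Dek among them, 8 passed. The smallest adjusted p of the pathway was 0.711, for Faap24. An unadjusted p under 0.05 was found for 1 of the 29 genes, or 3.45%, against 6.93% of all genes tested. Groups did not overlap for 1 gene, also Faap24, which was lower in DekTg, against 3.97% of all genes tested in either direction and 1.88% lower in DekTg. Log2 fold changes, DekTg minus DekCon, lay below 0 for 23 of 29 genes, or 79.3%, against 49.4% of all genes tested and 51.3% of the 22049 genes whose mean lay in the range of the pathway (8.92 to 399). With libraries scaled to their read total 17 of 29 lay below 0, against 39.8% of all genes. That scaling moved the median of all genes to 0.0836 and that of the 29 to -0.073, a like shift. Leaving out DekCon replicate 2, 18 of 29 lay below 0, against 50.9% of all genes. The median log2 fold change of the 29 genes was -0.16, against 0.0057 for all genes tested and -0.0093 for those in the same range of means. Leaving out DekCon replicate 2 moved the median of the 29 to -0.051.

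The 95% confidence intervals show what size of change these libraries leave possible. For 26 of 29 genes the interval of the log2 fold change lay between -1 and 1. The other 3 were Faap24, Faap100 and Fance, whose lower bounds were -1.03, -1.34 and -1.02. No upper bound was above 0.62, the bound of Rad51c. These intervals are per gene and not adjusted for the number of genes.

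**Figure D1:**
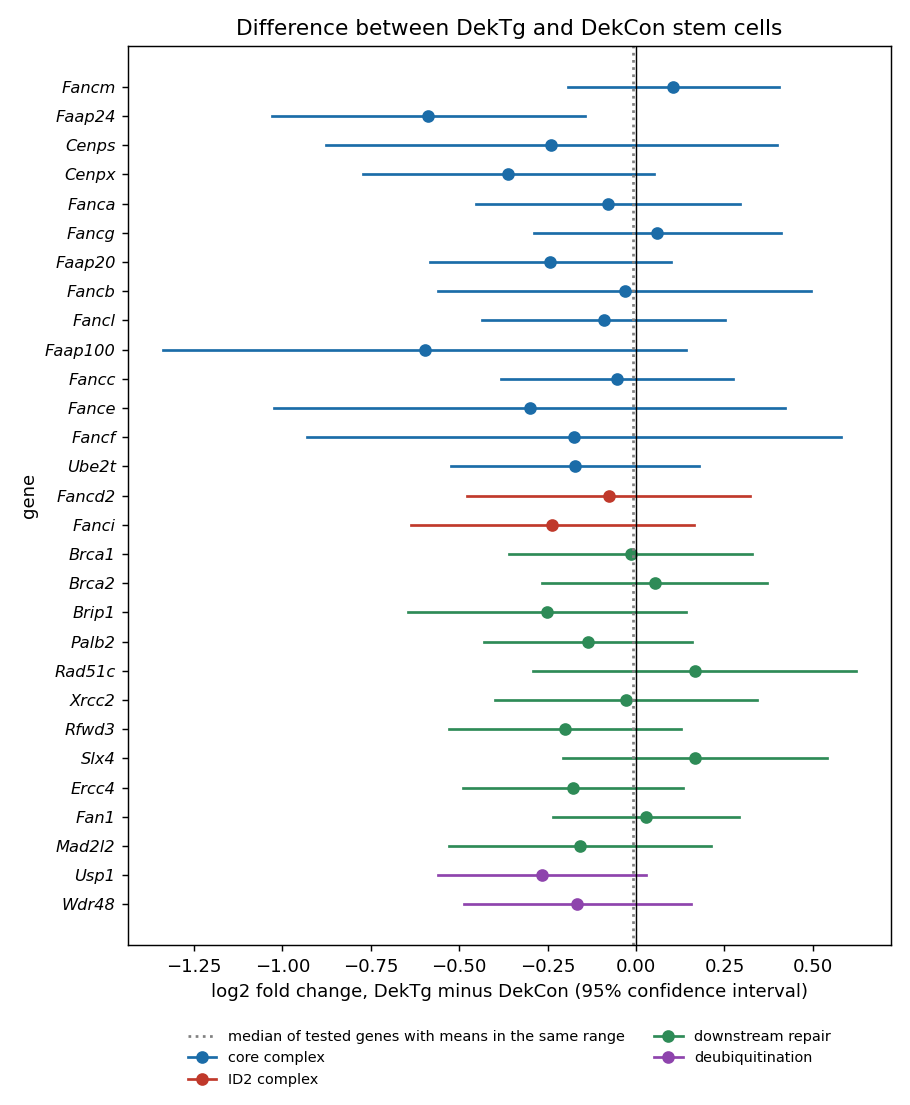
Log2 fold change of each of the 29 genes (x axis, DekTg minus DekCon, points) with its 95% confidence interval (lines), coloured by role. Of the 29 points 23 lie left of 0, and the interval of Faap24 is the 1 that does not cross 0.

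The core complex had 12 of 14 genes below 0, a median of -0.17 and none past the threshold. Faap24 encodes the partner that holds FANCM on DNA. The gene is at chr7:35392152-35396836 (GRCm38, minus strand). Its normalized read count was 51.9, 44.4, 59.2 and 56.7 in DekTg replicates 1 to 4, against 59.6, 124, 73.5 and 74.1 in DekCon replicates 1 to 4. All 4 DekTg values lay below all 4 DekCon values, with DekTg replicate 3 and DekCon replicate 1 almost touching, and DekCon replicate 2 lay far above the rest. The means were 53.1 ± 6.5 in DekTg and 82.9 ± 28.5 in DekCon (SD, n = 4 each; log2 fold change -0.59, SE 0.21, limma adjusted p = 0.711). Leaving out DekCon replicate 2 gave a log2 fold change of -0.38.

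Cenpx encodes a small histone-fold protein that forms a complex with CENPS and binds DNA together with FANCM. The gene is at chr11:120710942-120713738 (minus strand). Its value was 95.6, 148, 79.6 and 77.7 in DekTg replicates 1 to 4, against 106, 153, 125 and 117 in DekCon. DekTg replicate 2 lay among the DekCon values and the other 3 DekTg values below all of them. The log2 fold change was -0.36 (SE 0.19, 95% interval -0.77 to 0.051, limma adjusted p = 0.746), and -0.56 without DekTg replicate 2 (adjusted p = 0.396, the smallest of any pathway gene in any alternative run). FANCM itself, the translocase of this anchor, had 119 ± 14 in DekTg and 110.4 ± 6.2 in DekCon (log2 fold change 0.11, interval -0.19 to 0.40).

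The other core genes fall into 3 modules and the enzyme UBE2T, and none of them passed the test. In the module of FANCA, FANCG and FAAP20, which links the ligase to the rest, Fanca averaged 117 ± 15 in DekTg and 125 ± 29 in DekCon. Fancg averaged 153 ± 28 in DekTg and 147 ± 27 in DekCon, and Faap20 averaged 105 ± 20 in DekTg and 123 ± 12 in DekCon (SD, n = 4 each, here and below). Of the catalytic module, the ligase gene Fancl averaged 64.0 ± 6.4 in DekTg and 68.2 ± 6.6 in DekCon, and the X-linked Fancb averaged 28.2 ± 9.4 in DekTg and 28.0 ± 3.6 in DekCon. Of the module that joins the core to the ID2 complex, Fancc averaged 69.2 ± 5.9 in DekTg and 71.8 ± 5.1 in DekCon. Fancf, a gene of 1 exon, had the lowest values of the pathway, 8.22 ± 1.54 in DekTg and 9.63 ± 2.95 in DekCon, on 6 to 15 reads per library. Ube2t, which supplies the ubiquitin, averaged 138 ± 36 in DekTg and 153 ± 15 in DekCon (log2 fold change -0.17, interval -0.52 to 0.18).

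The core genes Faap100, Fance and Cenps are given in every library although the naming rule does not cover them, a choice made with their values known. Faap100, the scaffold of the catalytic module, had 119, 27.6, 65.02 and 131 in DekTg replicates 1 to 4, against 104, 156, 87.6 and 107 in DekCon. DekTg replicate 2 was the lowest of the 8 and DekCon replicate 2 the highest. Its log2 fold change of -0.60 (SE 0.35, adjusted p = 0.759) was the most negative of the pathway, and was -0.14 without DekTg replicate 2 and 0.021 without both libraries numbered 2. Fance, which binds FANCD2, had 28.0, 12.01, 29.1 and 45.1 in DekTg, against 24.1, 52.6, 33.9 and 24.7 in DekCon. Its log2 fold change was -0.30 (interval -1.02 to 0.42), and 0.049 without DekTg replicate 2. Cenps, the partner of CENPX, had 20.6, 13.2, 22.3 and 34.6 in DekTg, against 25.4, 38.3, 18.8 and 23.2 in DekCon. In all 3 genes the values of the 2 groups overlapped, and replicate 2 was the lowest library in DekTg and the highest in DekCon.

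**Figure D2:**
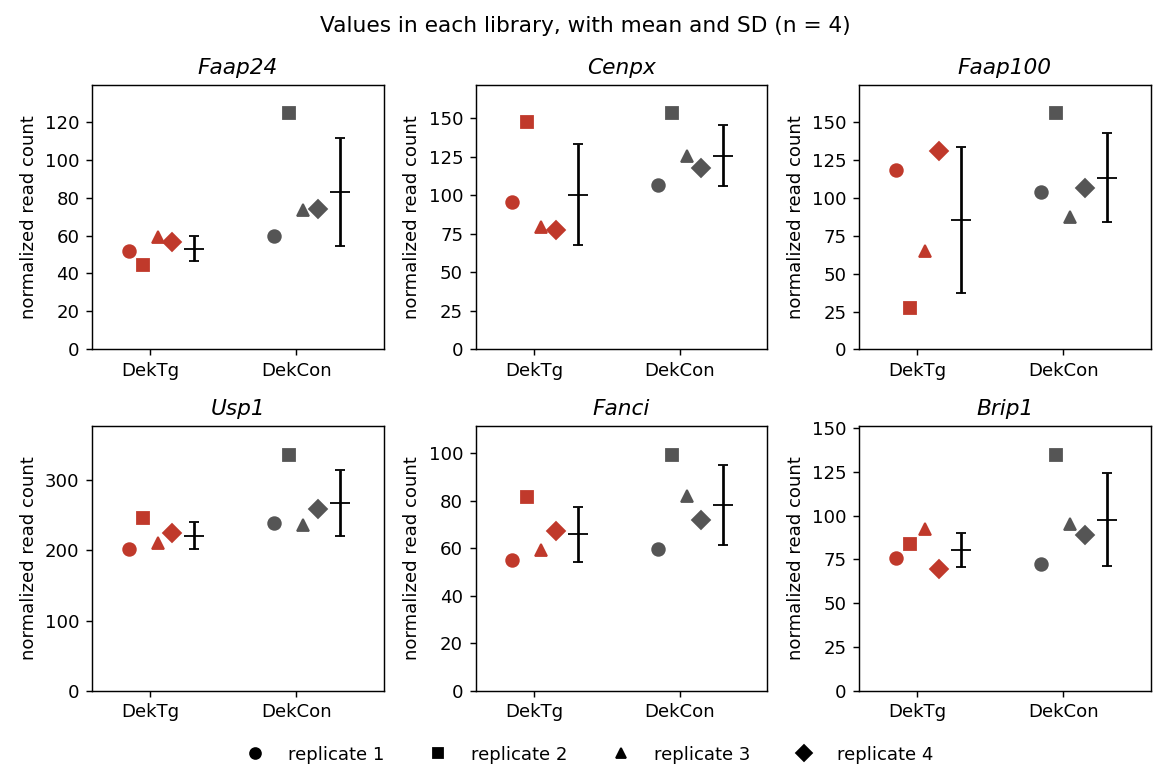
Normalized read count (y axis, from 0) of 6 genes in each DekTg and DekCon library, with mean and SD (n = 4) beside the points and a symbol for each replicate number. DekCon replicate 2 is the highest DekCon library in all 6 panels, and Faap24 is the gene whose groups do not overlap.

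Both genes of the ID2 complex lay slightly lower, within the spread between libraries. Fancd2 and Fanci encode the paired proteins that clamp onto DNA once they carry ubiquitin. Fanci (chr7:79391929-79450264, plus strand) had 55.2, 81.7, 59.2 and 67.2 in DekTg replicates 1 to 4, against 59.6, 99.5, 82.0 and 71.8 in DekCon. The groups overlapped, with replicate 2 the highest in each (log2 fold change -0.24, SE 0.19, interval -0.64 to 0.16, adjusted p = 0.82). Fancd2 (chr6:113531682-113597017, plus strand) had 76.6, 113, 85.4 and 76.6 in DekTg, against 73.5, 116, 109 and 75.6 in DekCon. DekTg replicate 2 and DekCon replicates 2 and 3 were the high ones. Its log2 fold change was -0.078 (interval -0.48 to 0.32).

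Downstream repair held 7 of 11 genes below 0, with a median of -0.028 and all 11 intervals between -1 and 1. Brip1 encodes the helicase that works with BRCA1. The gene is at chr11:86058138-86201193 (minus strand). Its value was 75.8, 84.1, 92.2 and 69.3 in DekTg replicates 1 to 4, against 72.3, 135, 95.2 and 88.8 in DekCon. The groups overlapped, and DekCon replicate 2 was far above the other 7 (log2 fold change -0.25, SE 0.19, adjusted p = 0.808; -0.086 without that library). Rfwd3 encodes a ubiquitin ligase that clears RPA from repair sites. It had 309, 488, 410.5 and 293 in DekTg, against 417, 467, 432 and 377 in DekCon. DekTg replicate 2 was the highest of the 8 and DekTg replicates 1 and 4 the lowest (log2 fold change -0.20, SE 0.15, adjusted p = 0.813).

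The groups overlapped for each of the other recombination genes. Brca1 averaged 156 ± 34 in DekTg and 156 ± 21 in DekCon (log2 fold change -0.015, interval -0.36 to 0.33). Brca2, a mediator of strand exchange, averaged 287 ± 55 in DekTg and 275 ± 39 in DekCon (0.052, interval -0.27 to 0.37). Palb2, which joins the BRCA proteins, averaged 134 ± 6 in DekTg and 148 ± 20 in DekCon, and its coefficient of variation in DekTg, 4.82%, was the lowest of the 29. Rad51c averaged 49.9 ± 7.5 in DekTg and 45.2 ± 12.0 in DekCon, and Xrcc2 averaged 107 ± 22 in DekTg and 109 ± 19 in DekCon.

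The groups also overlapped for each of the genes of nucleases and translesion synthesis. Slx4, the scaffold of structure-specific nucleases, averaged 94.2 ± 16.8 in DekTg and 83.7 ± 14.3 in DekCon, and its log2 fold change of 0.17 (interval -0.21 to 0.54) was the highest of the pathway. Ercc4, which encodes the nuclease XPF, averaged 123 ± 14 in DekTg and 139 ± 18 in DekCon (-0.18, interval -0.49 to 0.13). Fan1, a nuclease recruited by FANCD2 with ubiquitin, averaged 308 ± 36 in DekTg and 301 ± 17 in DekCon (0.028, interval -0.23 to 0.29). Mad2l2, the REV7 subunit of polymerase zeta, averaged 65.2 ± 9.8 in DekTg and 73.0 ± 12.4 in DekCon (-0.16, interval -0.53 to 0.21).

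The 2 deubiquitination genes were both lower on average. Usp1, the protease that removes ubiquitin from FANCD2, is at chr4:98923810-98935543 (plus strand). It had 202, 246, 211 and 225 in DekTg replicates 1 to 4, against 239.6, 337, 237 and 259 in DekCon. DekTg replicate 2 exceeded 2 DekCon libraries and the other 3 DekTg values lay below all DekCon values. The means were 221 ± 19 in DekTg and 268 ± 47 in DekCon (SD, n = 4 each; log2 fold change -0.27, SE 0.14, interval -0.56 to 0.029, adjusted p = 0.737), and the log2 fold change was -0.15 without DekCon replicate 2. Wdr48, the activating partner of USP1, is at chr9:119894878-119926587 (plus strand). It had 189, 279, 209 and 188 in DekTg, against 229, 293, 220.5 and 221 in DekCon. Replicate 2 was the highest library of each group, with DekTg replicates 1, 3 and 4 below all DekCon libraries (log2 fold change -0.17, SE 0.15, adjusted p = 0.842).

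Of 26 other genes of the pathway, 0 passed the threshold and 22 lay below 0, against 49.4% of all genes tested. Their median log2 fold change was -0.14. Blm, the helicase that dissolves recombination intermediates, had the smallest p, with 155 ± 20 in DekTg and 217 ± 58 in DekCon (log2 fold change -0.45, adjusted p = 0.711). Rpa1, which coats single-stranded DNA, had 359.7 ± 52.0 in DekTg and 445 ± 81 in DekCon (-0.30, adjusted p = 0.717). Of the 21 proliferation genes, 0 passed and all 21 lay below 0, against 49.4% of all genes tested, with a median of -0.29. Their sums were 7901 to 10041 in DekTg and 8626 to 15605 in DekCon. The 15605 was that of DekCon replicate 2, and the other DekCon libraries had 8626 to 10393. How many of the 21 lay below 0 without DekCon replicate 2 is not given here.

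The differences between libraries of 1 group were as large as those between groups. The median coefficient of variation of the 29 genes was 18.1% in DekTg and 17.0% in DekCon, and it reached 56.2% for Faap100 in DekTg. DekCon replicate 2 was the highest DekCon library for 21 of 29 genes, and DekCon replicate 1 the lowest for 14. DekTg replicate 2 was the highest DekTg library for 17 genes and the lowest for 8. The summed value of the 29 genes was 3213, 3972, 3390 and 3275 in DekTg replicates 1 to 4, against 3415, 4318, 3787 and 3483 in DekCon (3462 ± 348 in DekTg and 3751 ± 411 in DekCon, SD, n = 4 each). The sums of the 2 groups overlapped, and per 1000000 recovered reads they were 1132 ± 79 in DekTg and 1155 ± 84 in DekCon.

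**Figure D3:**
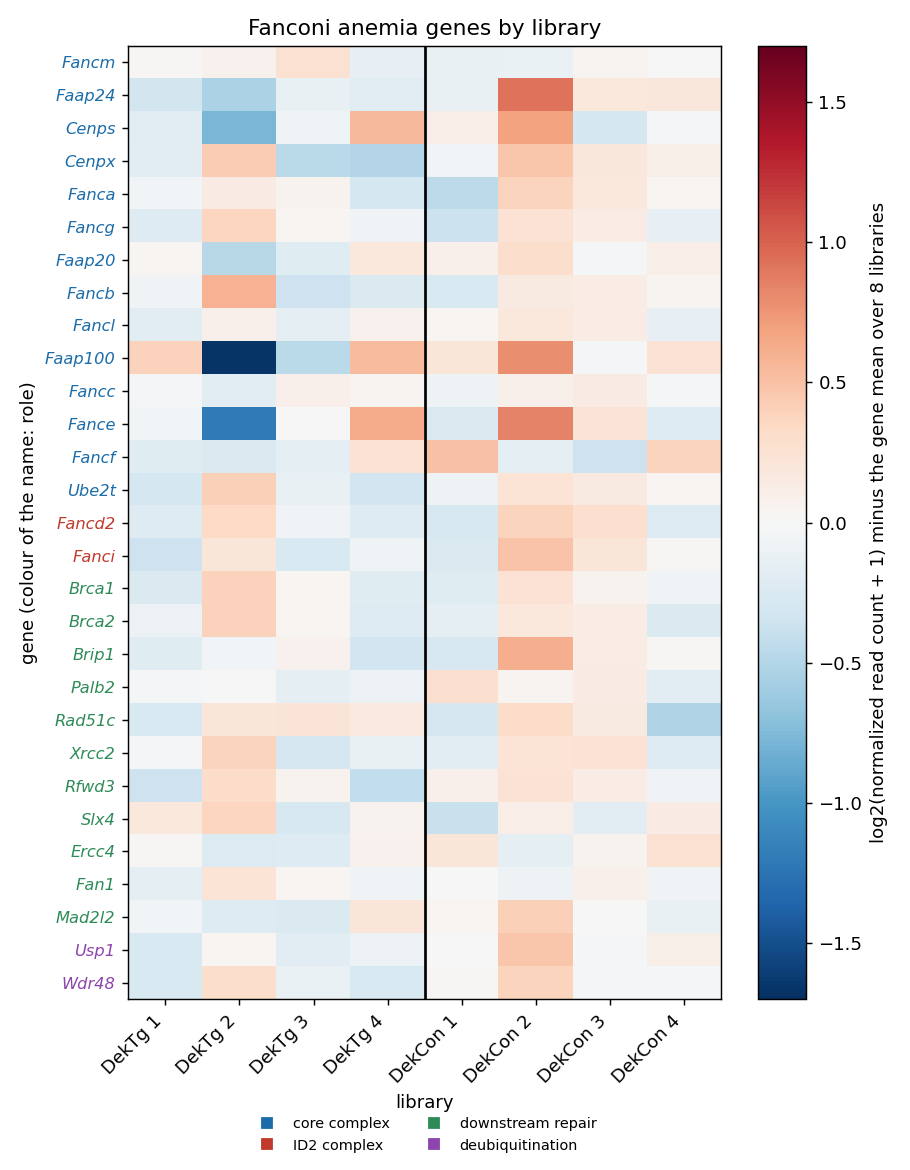
Log2(normalized read count + 1) of each gene (rows, name coloured by role) in each library (columns, DekTg left of the line), minus the gene's mean over the 8 libraries. The column of DekCon replicate 2 is mostly red, and the column of DekTg replicate 2 holds both the bluest cells (Faap100, Fance) and many red ones.

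Which genes were low in DekTg replicate 2 went with GC content. GC was taken from the longest coding transcript in GENCODE M21 and ran from 41.0% (Fancl) to 61.3% (Fance). Of 7 pathway genes with a GC of at least 55% (Cenps, Cenpx, Faap20, Faap100, Fance, Fancf and Mad2l2), DekTg replicate 2 was the lowest DekTg library in 5 and DekTg replicate 4 the highest in 6. Of 15 genes with a GC between 45 and 55%, DekTg replicate 2 was the highest in 12. Of 7 genes with a GC below 45%, it was the highest in 4 and the lowest in 0, so its ranks did not rise evenly as GC fell. The log2 difference of DekTg replicate 2 from the other 3 DekTg libraries was -1.83 for Faap100, -1.40 for Fance and -0.88 for Cenps. It was 0.81 for Cenpx, a GC-rich gene that went the other way. Across the 29 genes Pearson's r between that difference and GC was -0.66, and across 13877 genes of the table the deviation of DekTg replicate 2 from its group mean had an r of -0.43 with GC. Other libraries also varied with GC, measured in the same way: across the 29 genes r was 0.59 in DekTg replicate 1, -0.11 in DekTg replicate 3 and 0.67 in DekTg replicate 4, against 0.12, 0.14, -0.50 and 0.21 in DekCon replicates 1 to 4. Each library is set against the others of its group, so these values are not independent of each other. They are descriptions across genes and not tests. With the GC trend removed from every library the median log2 fold change of the pathway was -0.11, with 0 genes past the threshold.

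**Figure D4:**
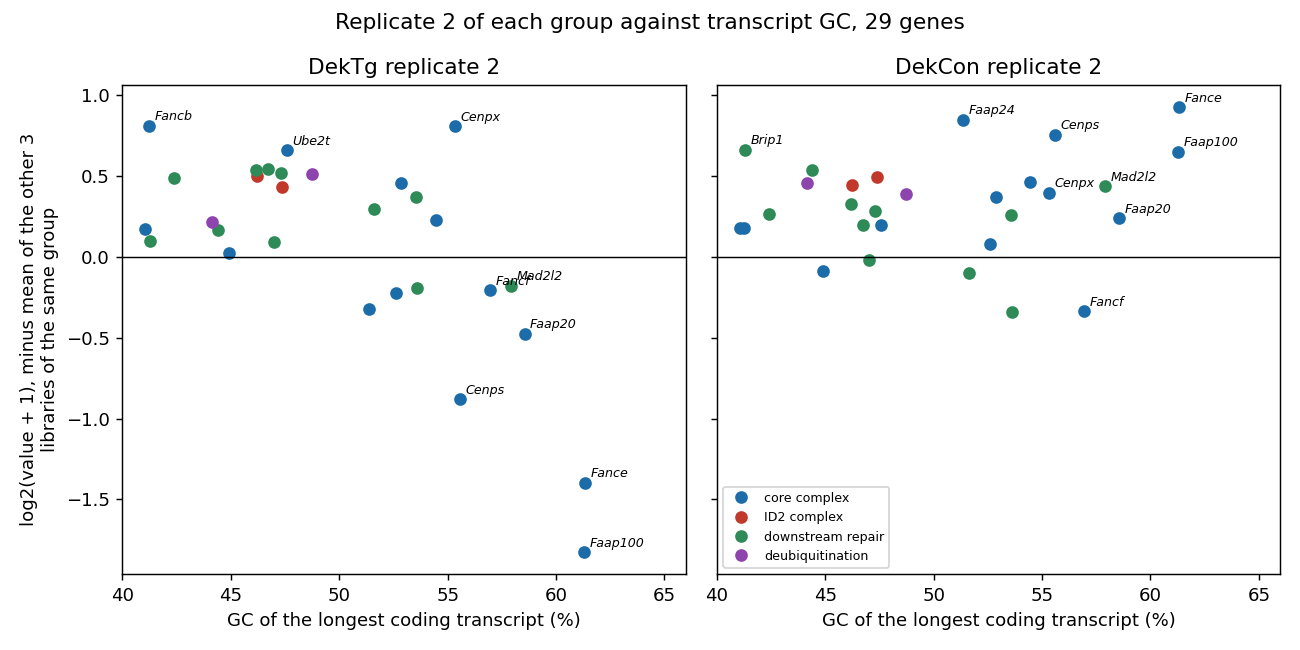
GC of the longest coding transcript (x axis, %) against the log2 difference of replicate 2 from the mean of the other 3 libraries of its group (y axis), for DekTg (left) and DekCon (right), 1 point per gene coloured by role. In DekTg replicate 2 Faap100 (-1.83) and Fance (-1.40) are lowest and lie at the highest GC, and in DekCon replicate 2 most points lie above 0.

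Levels of different genes were compared per 1000 bases of exon in GENCODE M21. Cenpx had the highest level, 93.0 ± 30.4 in DekTg and 117 ± 18 in DekCon. It was followed in DekTg by Faap20 (60.1 ± 11.7), Usp1 (59.2 ± 5.2), Rfwd3 (54.1 ± 13.2) and Fan1 (50.8 ± 6.0), and neighbours in that order of 4 did not differ beyond their SD. Fancf had the lowest level, 4.86 ± 0.91 in DekTg and 5.69 ± 1.75 in DekCon. Fancd2 had 11.1 ± 2.2 in DekTg and 11.8 ± 2.8 in DekCon, close to Fanci with 11.4 ± 2.0 in DekTg and 13.5 ± 2.9 in DekCon. The order depends on the length used: per 1000 bases of the longest coding transcript, Ube2t had 124 in DekTg and 137 in DekCon, against 28.6 in DekTg and 31.7 in DekCon per 1000 bases of exon. Per 1000 bases of its longest coding transcript Cenpx had 115 in DekTg and 144 in DekCon. By that length Ube2t was the highest of the 29 in DekTg and Cenpx in DekCon. No correction for uneven coverage along transcripts was made.

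**Figure D5:**
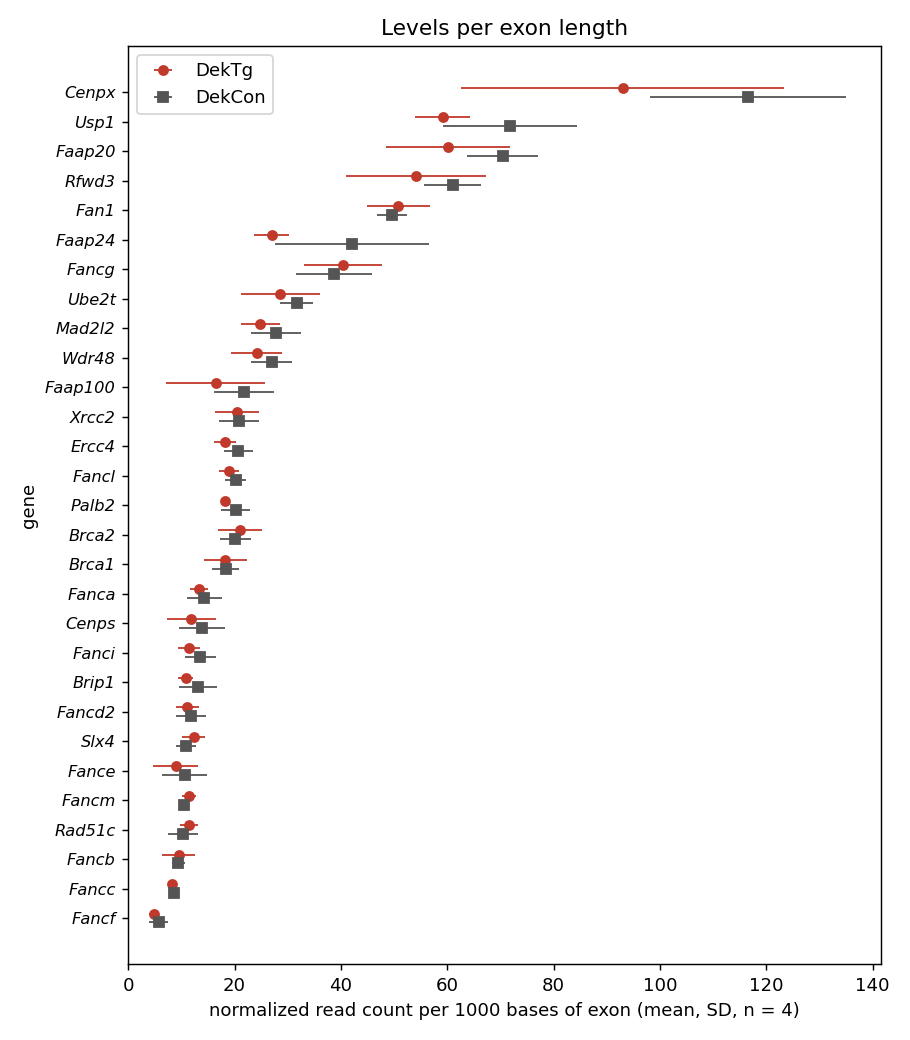
Normalized read count per 1000 bases of exon (x axis, mean with SD, n = 4) for each gene in DekTg (circles) and DekCon (squares), in the order of the DekCon level. Cenpx is highest and Fancf lowest in both groups, and the SD ranges of DekTg and DekCon overlap for all 29 genes.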

How the data were processed

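RNA of sorted stem cells was amplified by Geo-seq and tagmented, per the labels' protocols. The submitters' processing notes name build mm10 and the tools HTSeq, DESeq2, Cufflinks 2.1.1 and Bowtie 0.12.9, with no role or order. The deposited signal per gene is named FPKM by the table, but 99.994% of its 417792 values are whole multiples of 1 step per library (tolerance 0.001 reads), so the authors' values were read as counts divided by 1 size factor. The 25 others lie in 6 genes, none of the pathway. Columns spelled DenCon were matched to DekCon titles by group and number. Genes with a value of at least 1 in at least 4 of 8 libraries (37414) were tested with limma 3.58.1 (R 4.3.3; mean-variance trend, two-sided, Benjamini-Hochberg, 0.05) on log2(value + 1), which understates changes of low genes. The Dek test used scipy 1.17.1. The fit was tested on simulated data. Alternatives changed the pseudocount, the filter, the scaling or limma's options, added a replicate block, or used fewer libraries, edgeR 4.0.16 and DESeq2 1.42.0 on recovered reads without the 6 genes, or the average of libraries 1 and 4. Leaving out the 6 genes, both libraries numbered 2, the GC trend, or adding a term for libraries 2 and 3, were chosen after seeing the data. Values in every library are given for genes whose groups do not overlap, with an unadjusted p under 0.05, or among the 2 of smallest p in their role. The pathway genes and lists were chosen with earlier results of these data known. Without molecular identifiers, reads are not independent molecules.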

Additional observations from a re-analysis of the deposited data

Results flagged for a closer look

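Single libraries stood apart from the other 3 of their group in 3 of 58 sets of 4 values, by a gap, relative to the group's range, above Dixon's critical value, and chance gives about 1 in 20. Rad51c was 38.7 in DekTg replicate 1, against 52.5 to 54.3 in the other DekTg libraries. Fancf was 10.5 in DekTg replicate 4, against 7.21 to 7.76 in the others, a difference of a few reads. Wdr48 was 293 in DekCon replicate 2, against 220.5 to 229 in the other DekCon libraries.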

How the results depend on the processing

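No pathway gene passed the threshold in any of 27 alternatives. The smallest adjusted p was 0.396, and the median log2 fold change ranged from -0.17 to -0.051. DESeq2 after independent filtering gave an adjusted p to 5 of the 29 genes. Of all genes tested 13 passed, and 8 without the 6 genes. On recovered reads, also without the 6 genes, 9 passed by edgeR and 14 by DESeq2. Of the 14, 4 were higher and 10 lower in DekTg, against 10 higher and 3 lower of the 13. DESeq2 gave an adjusted p to 3319 genes. With limma, 4 passed without its trend and 39 without both libraries numbered 2. Leaving out 1 library, 13 to 22 passed, the 22 without DekTg replicate 2. The ratio of Dek means ranged from 4.36 to 5.09 leaving out 1 library (exact permutation p = 0.0571, the smallest 3 against 4 allow). The DekTg values of Dek are not whole numbers of reads, so this range is not one of measured sizes. Deviations of same-numbered libraries from their group means had r of 0.041, -0.0032, 0.037 and 0.106 across 14580 genes. The proliferation, megakaryocyte and myeloid sums nevertheless went with the library number in both groups, though not every single myeloid marker did. Whether same-numbered libraries were processed together was not tested. With the replicate block 15 genes passed, 0 of them in the pathway.

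Of 782 values of single pathway genes, 743 kept their direction. Values that changed sign, none past the threshold, were these. Scaling to read totals moved the median of all genes to 0.0836, against 0.0057 as reported; with it, the log2 fold change was 0.0063 for Fanca, 0.0505 for Fancb, 0.0305 for Fancc, 0.0072 for Fancd2, 0.0704 for Brca1 and 0.0568 for Xrcc2. With quantile normalization it was 0.0545 for Brca1 and 0.0234 for Xrcc2. It was 0.0104 for Brca1 with libraries 1 and 4 averaged, and -0.0119 for Fan1 with array weights. Without both libraries numbered 2 it was 0.17 for Cenps, 0.0211 for Faap100, 0.0216 for Fancc, 0.28 for Fance, -0.0027 for Brca2 and -0.0701 for Fan1. Leaving out 1 library it ranged from -0.24 to 0.0363 for Fanca, -0.053 to 0.15 for Fancg, -0.23 to 0.0802 for Fancb, -0.0938 to 0.0025 for Fancc, -0.56 to 0.049 for Fance, -0.20 to 0.0339 for Fancd2, -0.15 to 0.0666 for Brca1, -0.0696 to 0.13 for Brca2, -0.16 to 0.0603 for Xrcc2 and -0.0458 to 0.083 for Fan1. For read totals the shift of all genes accompanies the changes of sign; for the others the cause was not tested. Low counts limit Fancf.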
